A study of Mus musculus with 24 samples.

Results

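The 36 genes described here encode enzymes of cholesterol and fatty acid synthesis, the SREBP proteins that control them, and proteins that move cholesterol in and out of cells. They were chosen by name, as the gene names on the array that equal a list of genes of these pathways. The list was chosen with earlier results of these data known. All 36 were found among 27398 gene names, with 67 probes. Each gene is given by its probe with the highest mean, and that probe was well above background in all 24 samples for all 36 genes.

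RNA came from L4 and L5 dorsal root ganglia (DRGs), the ganglia that hold the cell bodies of the sensory axons of the sciatic nerve. Adult male C57BL/6J mice, either *Nfil3* knockout (KO) or their wildtype (WT) littermates, received a sciatic nerve lesion on 1 side and were sampled at day 2 or day 5, and DRGs of the side without injury served as control. This gave 6 groups of 4 samples (WT control, WT day 2, WT day 5, KO control, KO day 2 and KO day 5) on 12 arrays of 3 slides. The titles of the control samples give day 0, and the day on which their ganglia were taken is not stated. *Nfil3* encodes a bZIP transcription factor, and the KO mice descend from a floxed allele deleted by Cre under the CMV promoter, so that neurons, glia and immune cells carry the deletion alike. The labels name the tissue as DRG neurons, but whole ganglia were taken, and all 11 Schwann cell myelin markers measured, such as *Mbp*, were well above background in all 24 samples, as were 13 of 13 neuron markers. In such tissue fewer cells of a type and less RNA per cell cannot be told apart.

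The knocked out gene and the injury response were checked first. *Nfil3* read 8.44 to 11.08 on the log2 intensity scale in the 12 WT samples, all well above background, and 2.82 to 7.59 in the 12 KO samples, of which 5 were well above background. The highest KO value, 7.59, was that of KO control replicate 4, a sample whose title and source name give control while another label field gives day 5. *Atf3*, a transcription factor gene induced by axon injury, read 7.25 to 10 in the 8 control samples and 12.94 to 14.1 in the 16 lesion samples, and KO control replicate 4 read 9.66, among the controls. Values below are log2 intensities after background correction and quantile normalization, changes are differences of these with their SE, and a gene is said to rise or fall where the Benjamini-Hochberg adjusted p of limma over all 41174 probes is below 0.05.

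Cholesterol is built from acetyl-CoA through mevalonate, squalene and lanosterol, and the same acetyl-CoA feeds fatty acid synthesis, elongation and desaturation. SREBP2 (*Srebf2*) drives the cholesterol genes and SREBP1 (*Srebf1*) mainly the fatty acid genes. The escort protein SCAP carries both to the Golgi for cleavage when sterol is low, and the INSIG proteins hold SCAP back when sterol is high. Cells export surplus cholesterol through the transporters ABCA1 and ABCG1, both targets of the oxysterol-sensing LXR receptors. In peripheral nerve these pathways are known above all for supplying myelin membrane, and neurons also draw on them when axons grow.

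SREBPs act at promoters together with the CCAAT-binding factor NF-Y, so the bases before the start sites of 6 of the genes are shown here, as background to the changes below. They are *Hmgcs1* at chr13:119690101-119690350 (plus strand), an entry point of the pathway, *Tm7sf2* at chr19:6067851-6068100 (minus strand) and *Sc4mol* at chr8:64733579-64733828 (minus strand), which fell after the lesion, and *Hsd17b7* at chr1:169969206-169969455 (minus strand), *Ebp* at chrX:8193513-8193762 (minus strand) and *Abca1* at chr4:53159896-53160145 (minus strand), which rose. Each line gives the 250 bases before the start site, 5′ to 3′ on the strand of the gene, in the RefSeq annotation of GRCm38.p6. Capitals mark a sterol regulatory element core TCACNCCAC, an NF-Y box CCAAT, an E-box CACGTG or an NFIL3 site TTANGTAA, on either strand, and none of these marked letters overlap.
Hmgcs1: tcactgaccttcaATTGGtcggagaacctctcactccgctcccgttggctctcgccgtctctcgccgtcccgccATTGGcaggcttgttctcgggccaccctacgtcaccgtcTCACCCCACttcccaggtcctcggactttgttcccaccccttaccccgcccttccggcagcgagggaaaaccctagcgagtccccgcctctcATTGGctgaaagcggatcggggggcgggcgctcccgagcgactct
Tm7sf2: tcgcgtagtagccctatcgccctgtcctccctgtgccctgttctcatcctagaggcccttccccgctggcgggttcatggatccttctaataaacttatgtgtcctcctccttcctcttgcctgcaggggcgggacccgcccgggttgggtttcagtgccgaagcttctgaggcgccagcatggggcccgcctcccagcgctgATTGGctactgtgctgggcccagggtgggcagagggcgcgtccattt
Sc4mol: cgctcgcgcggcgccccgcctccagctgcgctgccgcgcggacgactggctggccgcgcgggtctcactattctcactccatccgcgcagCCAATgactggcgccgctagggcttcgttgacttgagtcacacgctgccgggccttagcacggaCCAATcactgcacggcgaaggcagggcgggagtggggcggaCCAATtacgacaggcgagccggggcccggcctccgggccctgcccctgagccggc
Hsd17b7: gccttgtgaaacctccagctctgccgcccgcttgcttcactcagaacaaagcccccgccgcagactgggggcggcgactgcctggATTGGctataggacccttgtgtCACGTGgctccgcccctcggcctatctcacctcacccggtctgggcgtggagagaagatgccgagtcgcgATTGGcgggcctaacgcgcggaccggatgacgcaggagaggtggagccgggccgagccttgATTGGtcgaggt
Ebp: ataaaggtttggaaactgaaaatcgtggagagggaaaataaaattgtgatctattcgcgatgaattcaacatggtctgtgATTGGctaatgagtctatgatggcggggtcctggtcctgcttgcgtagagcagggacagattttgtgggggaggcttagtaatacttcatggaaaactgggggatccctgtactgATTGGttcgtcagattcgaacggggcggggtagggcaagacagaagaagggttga
Abca1: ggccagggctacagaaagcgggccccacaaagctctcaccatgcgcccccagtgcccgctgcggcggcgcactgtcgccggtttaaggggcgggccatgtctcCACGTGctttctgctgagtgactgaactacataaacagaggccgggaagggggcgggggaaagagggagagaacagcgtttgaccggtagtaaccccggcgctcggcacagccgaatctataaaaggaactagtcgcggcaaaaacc

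RefSeq windows of 250 bases before to 50 bases after a start were matched for 27 of the 36 genes. No window was matched for *Fdps*, *Fdft1*, *Sqle*, *Stard4*, *Scd1*, *Scd2*, *Fads1*, *Abcg1* and *Npc1*. CCAAT was found for all 5 mevalonate genes and all 9 sterol genes with a window, and for 21 of the 27 genes in all. Some genes have several windows, and counted by window 22 of 35 member windows held it, beside 37.4% of all 32851 mouse windows. The sterol regulatory element core was found in *Hmgcs1* alone, where it begins 137 bases before the start, and in 1.24% of all windows. The E-box was found for 7 genes, among them *Hsd17b7* at 143 bases and *Abca1* at 147 bases before the start, and in 8 of the 35 member windows and 7.15% of all windows. The GC box GGGCGG, which is not marked above, was found for 22 of the 27 genes, and in 26 of the 35 member windows and 35.7% of all windows. No member window held the NFIL3 site, and 2.32% of all windows did. Genes that rose and genes that fell both held CCAAT (*Hsd17b7* and *Ebp* as well as *Tm7sf2* and *Sc4mol*). These are matches of letters, not measured binding.

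After the lesion most of the genes that changed fell by a modest amount, and a few rose, of which *Abca1* and *Hsd17b7* rose far more than any other member moved. At day 2, with both genotypes averaged, 4 of 36 genes rose and 13 fell, where 9.39% of all genes rose and 12.9% fell. At day 5, 4 rose and 16 fell, where 10.2% of all genes rose and 13% fell. By the F test over both days 21 of the 36 changed, against 26.3% of all genes. Shares of all genes, here and below, include genes not above background, whereas all 36 members were. The shares are therefore not matched to the members for detection, and the members were chosen with earlier results of these data known. The median change of the members was -0.15 at day 2 and -0.15 at day 5, beside -0.02 and -0.03 over all genes. In all, 15 genes were called at both days, each in the same direction. Both days were compared with the same 8 controls, which favours joint calls and a shared sign. The share of all genes called at both days is not given here. For 7 of 36 members the 8 day 2 samples did not overlap the 8 controls, against 6.75% of all genes. For 11 of 36 members the 8 day 5 samples did not, against 11.9% of all genes. The plot of all 36 changes shows these by role.

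**Figure D1:**
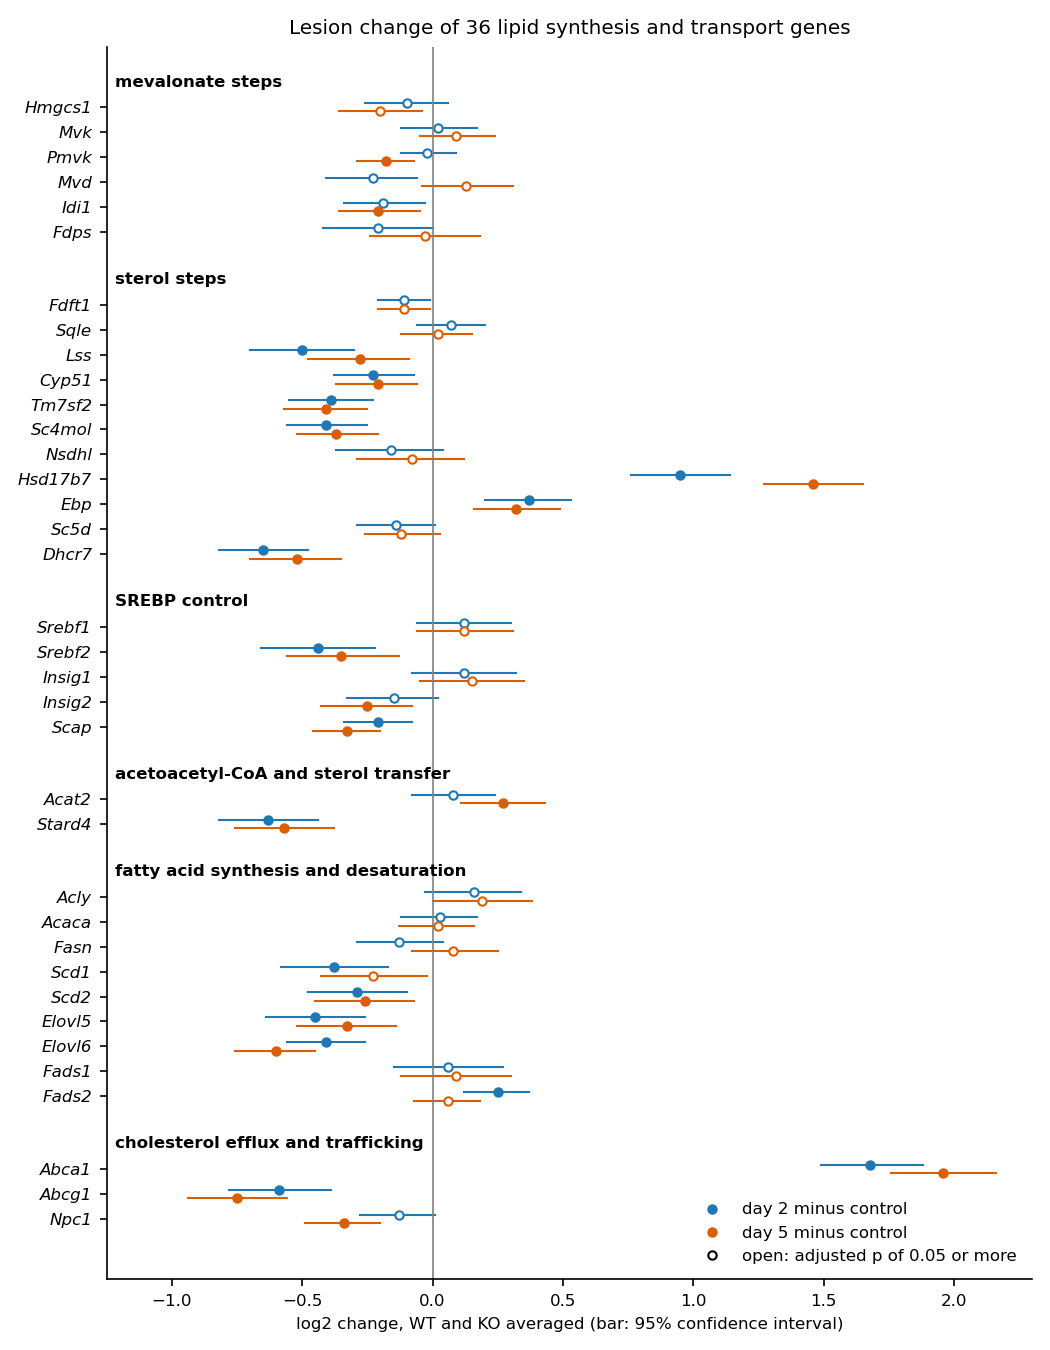
Log2 change of each of the 36 genes at day 2 (blue) and day 5 (orange) minus control, with WT and KO averaged, grouped by role. Bars are 95% confidence intervals and filled points have an adjusted p below 0.05, with *Abca1* (1.68 and 1.96) and *Hsd17b7* (0.95 and 1.46) far to the right and most other filled points left of 0.

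Within the sterol steps, which run from squalene synthesis to cholesterol, 2 genes rose and 5 fell at each day, out of 11. The genes that rose act next to each other late in the pathway. *Hsd17b7*, which encodes the 3-ketosteroid reductase that ends removal of the C4 methyl groups (its protein is also known to make estradiol from estrone), rose 1.93-fold at day 2 and 2.75-fold at day 5. *Hsd17b7* read 11.92, 11.66, 11.65 and 11.55 in the 4 WT controls, 12.79, 12.91, 12.48 and 12.65 in WT at day 2, and 13.18, 13, 13.12 and 12.92 in WT at day 5 (log2 intensity). In KO, *Hsd17b7* read 12.03, 11.73, 12.04 and 11.69 in the controls, 12.7, 12.92, 12.43 and 12.98 at day 2, and 13.49, 13.33, 13.51 and 13.4 at day 5. All 16 lesion samples lay above all 8 controls. The day 5 samples of KO lay above those of WT, but this difference between genotypes was not called. The change from control was 0.95 ± 0.09 at day 2 (adjusted p = 1.61e-07, limma) and 1.46 ± 0.09 at day 5 (adjusted p = 1.87e-10, limma). It went on rising between the days, by 0.51 ± 0.09 (adjusted p = 0.00198, limma). The probe lies at chr1:171882591-171882650 in mm9, and the second *Hsd17b7* probe rose by 0.99 and 1.34.

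*Ebp* encodes the isomerase of the next step. *Ebp* read 12.6, 12.51, 12.6 and 12.67 in the 4 WT controls, 12.84, 12.7, 12.9 and 13.07 in WT at day 2, and 12.86, 12.7, 13.17 and 12.82 in WT at day 5 (log2 intensity). In KO, *Ebp* read 12.61, 12.25, 12.78 and 12.6 in the controls, 13.09, 13, 13.03 and 12.92 at day 2, and 12.95, 12.78, 13.04 and 12.89 at day 5. The day 2 and day 5 values lay mostly above the controls but overlapped with KO control replicate 3. It rose 1.29-fold at day 2 (0.37 ± 0.08, adjusted p = 0.00208, limma) and 1.25-fold at day 5 (0.32 ± 0.08, adjusted p = 0.0048, limma). Its probe lies at chrX:7762463-7762522 in mm9.

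*Dhcr7*, by contrast, fell most of the sterol enzymes. It encodes 7-dehydrocholesterol reductase, the last step of a branch to cholesterol. *Dhcr7* read 12.23, 12.45, 12.56 and 12.58 in the 4 WT controls, 11.94, 11.58, 11.52 and 11.87 in WT at day 2, and 11.79, 11.99, 11.98 and 11.87 in WT at day 5 (log2 intensity). In KO, *Dhcr7* read 12.49, 12.4, 12.39 and 12.37 in the controls, 11.63, 11.95, 12.14 and 11.63 at day 2, and 11.99, 11.92, 11.88 and 11.87 at day 5. None of the 16 lesion samples reached the lowest control. The fall was 0.65 on the log2 scale at day 2 (SE 0.08, adjusted p = 8.72e-06, limma), or 1.57-fold, and 0.52 at day 5 (SE 0.08, adjusted p = 7.94e-05, limma), or 1.44-fold. The probe lies at chr7:151034253-151034312 in mm9, and the second probe changed by -0.68 and -0.5.

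*Lss* encodes lanosterol synthase, which closes the ring system. *Lss* read 9.1, 8.77, 8.85 and 8.45 in the 4 WT controls, 8.42, 8.33, 8.43 and 8.38 in WT at day 2, and 8.85, 8.4, 8.64 and 8.28 in WT at day 5 (log2 intensity). In KO, *Lss* read 9.13, 8.97, 9.05 and 8.91 in the controls, 8.38, 8.36, 8.71 and 8.2 at day 2, and 8.8, 8.7, 8.66 and 8.64 at day 5. The day 2 values lay low in both genotypes, yet WT control replicate 4 fell within their range, and at day 5 the overlap was wider. *Lss* fell by 0.50 at day 2 (SE 0.09, adjusted p = 0.000567, limma) and by 0.28 at day 5 (SE 0.09, adjusted p = 0.0346, limma). Its other 2 probes fell at day 2, by 0.48 and 0.41, and did not pass at day 5.

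Of the other sterol enzymes, 3 more fell at both days. *Tm7sf2*, a sterol C14 reductase gene, changed by -0.39 ± 0.08 and -0.41 ± 0.08 at day 2 and day 5 (adjusted p = 0.000865 and 0.000415, limma). *Sc4mol*, which encodes the C4 methyl oxidase (the RefSeq name is *Msmo1*), changed by -0.41 ± 0.07 and -0.37 ± 0.07 (adjusted p = 0.000428 and 0.000904, limma). *Cyp51*, the lanosterol C14 demethylase gene, changed by -0.23 ± 0.07 and -0.21 ± 0.07 (adjusted p = 0.0329 and 0.0407, limma). The other *Cyp51* probes changed by -0.13 and -0.28 at day 2, of which only the latter passed. At day 5 they changed by -0.16 and -0.12, and neither passed. With each sample left out in turn, *Cyp51* was called in 18 of 24 fits at day 2 and in 14 of 24 at day 5. The Sc4mol and Hsd17b7 proteins act in the same series of reactions, the removal of the C4 methyl groups, so that genes of that series moved in opposite directions.

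The remaining 4 sterol genes did not pass at either day. The differences from control were -0.11 and -0.11 for *Fdft1* (squalene synthase), 0.07 and 0.02 for *Sqle* (squalene epoxidase), -0.16 and -0.08 for *Nsdhl* (the C4 decarboxylase), and -0.14 and -0.12 for *Sc5d* (the C5 desaturase). For *Nsdhl*, however, the other 3 probes all fell at day 2, by 0.22, 0.24 and 0.92, and the last of these also at day 5, by 0.60. The second *Sc5d* probe fell at day 2, by 0.33, and the second *Fdft1* probe fell at day 5, by 0.27, so that these genes are uncertain.

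Of the 6 mevalonate genes, which lead from HMG-CoA to farnesyl diphosphate, none was called at day 2 by limma (2 had an unadjusted p below 0.05) and 2 fell at day 5. *Pmvk* (phosphomevalonate kinase) fell by 0.18 at day 5 (SE 0.05, adjusted p = 0.015, limma) and its 8 day 5 samples lay below all controls. The second *Pmvk* probe had a change of -0.17 at day 5 and was not called (adjusted p = 0.0993, limma). *Idi1* (isopentenyl diphosphate isomerase) fell by 0.21 (SE 0.07, adjusted p = 0.047, limma), close to the threshold. The second *Idi1* probe had a change of 0.03 at each day and was not called. The day 5 call of *Idi1* held in 8 of 14 alternative fits and in 9 of 24 fits with a sample left out, so this fall is uncertain. *Mvd* (mevalonate diphosphate decarboxylase) had a change of -0.23 at day 2 (adjusted p = 0.0535, limma) and of 0.13 at day 5, and rose between the days by 0.37 ± 0.08 (adjusted p = 0.0175, limma). *Hmgcs1* (HMG-CoA synthase), *Mvk* (mevalonate kinase) and *Fdps* (farnesyl diphosphate synthase) had changes of -0.2 to 0.09 at day 5 and of -0.21 to 0.02 at day 2, with no call. *Acat2*, which makes the acetoacetyl-CoA that enters the pathway, rose at day 5 by 0.27 ± 0.08 (adjusted p = 0.014, limma) and had a change of 0.08 at day 2.

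*Acat2* read 8.56, 8.26, 8.45 and 8.41 in the 4 WT controls, 8.56, 8.55, 8.27 and 8.34 in WT at day 2, and 8.55, 8.63, 8.94 and 8.57 in WT at day 5 (log2 intensity). In KO, *Acat2* read 8.29, 8.43, 8.73 and 8.42 in the controls, 8.57, 8.65, 8.64 and 8.61 at day 2, and 8.74, 8.58, 8.83 and 8.88 at day 5. The day 5 samples lay high in both genotypes, but WT control replicate 1 and KO control replicate 3 were within their range. The plot of the steps in order sets the enzymes side by side in WT and KO. No test compared the mevalonate steps with the sterol steps as groups.

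**Figure D2:**
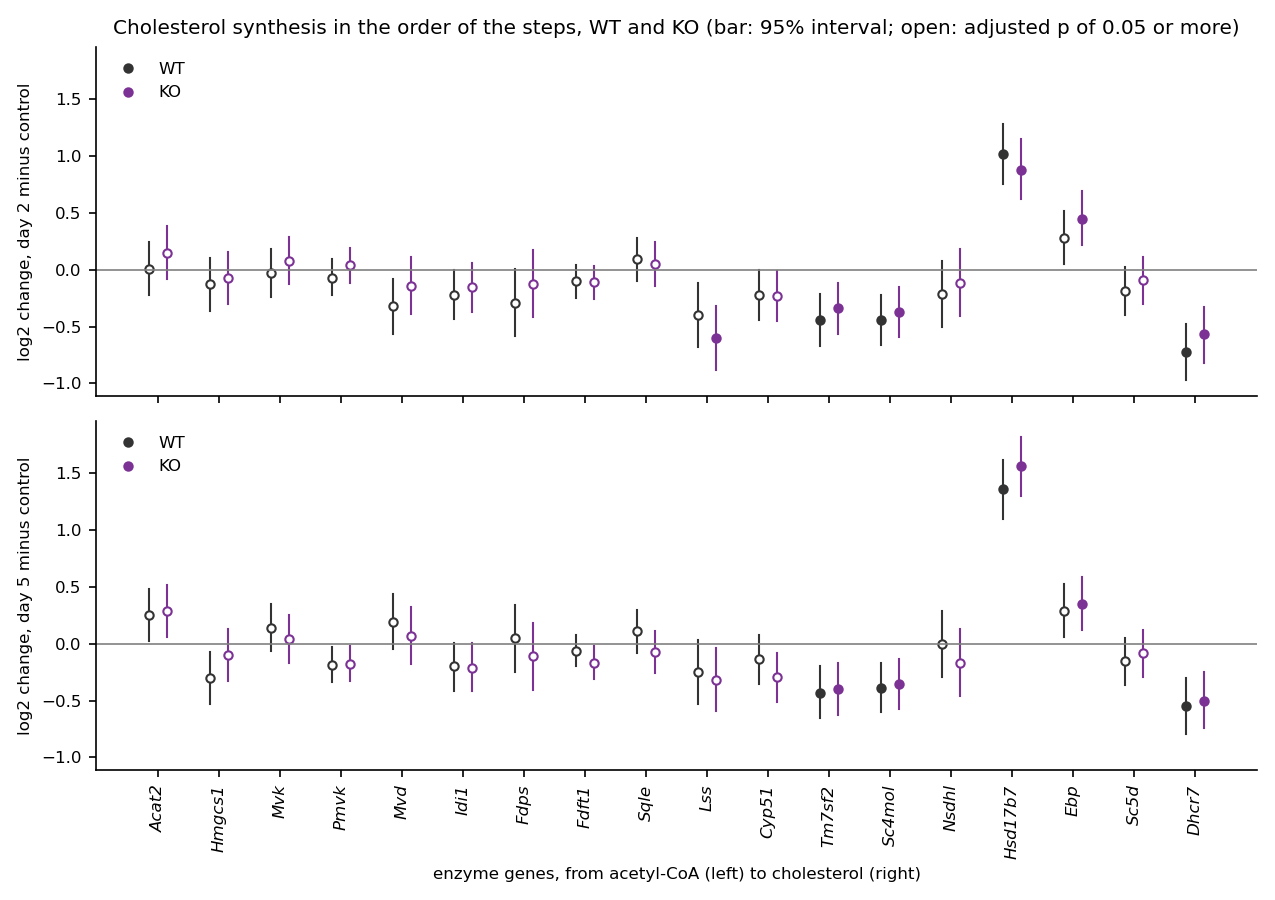
Log2 change at day 2 (top) and day 5 (bottom) minus the control of the same genotype for the members that encode enzymes of cholesterol synthesis, in the order of their steps, WT in black and KO in purple. Bars are 95% confidence intervals and filled points have an adjusted p below 0.05, and *Hsd17b7* stands above its neighbours in both genotypes while *Dhcr7* lies lowest in WT at both days and level with *Lss* in KO at day 2.

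Among the SREBP genes, *Srebf2* and *Scap* fell and *Srebf1* did not pass. *Srebf2* changed by -0.44 ± 0.1 at day 2 (adjusted p = 0.00409, limma) and by -0.35 ± 0.1 at day 5 (adjusted p = 0.0191, limma). Its 8 control samples read 13.16 to 13.38, its day 2 samples 12.42 to 13.25 and its day 5 samples 12.75 to 13.1, so the day 5 samples lay below all controls while WT day 2 replicate 1 and KO day 2 replicate 2 lay among them. The other 3 *Srebf2* probes were not called at day 2, with changes of -0.16, -0.07 and 0.09, and of these 1 fell at day 5, by 0.26. Averaged over its probes *Srebf2* had a change of -0.14 at day 2 and was not called (adjusted p = 0.11, limma). *Scap* changed by -0.21 ± 0.06 and -0.33 ± 0.06 (adjusted p = 0.0218 and 0.00046, limma), and its day 5 samples also lay below all controls. *Insig2* fell at day 5 by 0.25 (SE 0.08, adjusted p = 0.0332, limma). This call held in 16 of 24 fits with a sample left out, and the second *Insig2* probe was not called. *Insig1* had changes of 0.12 and 0.15 and *Srebf1* of 0.12 and 0.12, and neither was called. The 95% intervals of *Srebf1* ran from -0.06 to 0.3 at day 2 and from -0.06 to 0.31 at day 5.

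*Stard4* encodes a carrier that moves sterol between membranes inside the cell, and it is itself an SREBP target. *Stard4* read 10.83, 10.91, 11.14 and 11.16 in the 4 WT controls, 10.25, 10.19, 10.24 and 10.37 in WT at day 2, and 10.24, 10.25, 10.4 and 10.38 in WT at day 5 (log2 intensity). In KO, *Stard4* read 10.86, 10.79, 10.91 and 11.16 in the controls, 10.09, 10.57, 10.78 and 10.2 at day 2, and 10.6, 10.41, 10.36 and 10.55 at day 5. All lesion samples lay below all controls, although KO day 2 replicate 3, at 10.78, lay next to the lowest control at 10.79. *Stard4* fell by 0.63 at day 2 (SE 0.09, adjusted p = 3.04e-05, limma), or 1.55-fold, and by 0.57 at day 5 (SE 0.09, adjusted p = 7.5e-05, limma), or 1.49-fold. The other 2 probes fell at both days as well.

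In fatty acid synthesis the genes of the first steps did not pass. Some genes of elongation and desaturation fell, while *Fads2* rose at day 2 and *Fads1* was not called. The differences at day 2 and day 5 were 0.16 and 0.19 for *Acly*, which makes cytosolic acetyl-CoA from citrate, 0.03 and 0.02 for *Acaca* (acetyl-CoA carboxylase), and -0.13 and 0.08 for *Fasn* (fatty acid synthase). Of the 9 genes, 1 rose and 4 fell at day 2, and 3 fell at day 5. The difference between the first steps and the later ones was not tested. One weaker *Acaca* probe rose at day 2, by 0.29, and the second probe of *Acly* never rose well above background.

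*Elovl6* elongates saturated fatty acids such as palmitate. *Elovl6* read 11.04, 11.19, 10.96 and 11.18 in the 4 WT controls, 10.66, 10.71, 10.86 and 10.56 in WT at day 2, and 10.37, 10.58, 10.22 and 10.44 in WT at day 5 (log2 intensity). In KO, *Elovl6* read 10.96, 11.15, 10.91 and 10.9 in the controls, 10.59, 10.65, 10.47 and 10.5 at day 2, and 10.5, 10.66, 10.18 and 10.5 at day 5. No lesion sample reached the controls at either day. *Elovl6* fell by 0.41 at day 2 (SE 0.07, adjusted p = 0.000377, limma), or 1.33-fold, and by 0.60 at day 5 (SE 0.07, adjusted p = 3.85e-06, limma), or 1.52-fold. *Elovl5*, the elongase of polyunsaturated fatty acids, changed by -0.45 ± 0.09 and -0.33 ± 0.09 (adjusted p = 0.00112 and 0.00997, limma), with its second probe falling too.

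Both stearoyl-CoA desaturases measured as members, which make oleate, fell at day 2. *Scd1* changed by -0.38 ± 0.1 at day 2 (adjusted p = 0.00769, limma) and differed by -0.23 at day 5, which did not pass. *Scd2* changed by -0.29 ± 0.09 and -0.26 ± 0.09 (adjusted p = 0.0248 and 0.0441, limma). The day 5 call of *Scd2* held in 10 of 14 alternative fits and in 9 of 24 fits with a sample left out. Within slide 2 alone its day 5 difference was 0.1, so the day 5 fall is uncertain. Of the polyunsaturated desaturases, *Fads1* had changes of 0.06 and 0.09 and was not called, and *Fads2* rose at day 2 alone. *Fads2* read 8.63, 8.69, 8.71 and 8.68 in the 4 WT controls, 9.07, 8.91, 8.77 and 8.81 in WT at day 2, and 8.79, 8.84, 8.81 and 8.75 in WT at day 5 (log2 intensity). In KO, *Fads2* read 8.71, 8.63, 8.74 and 8.51 in the controls, 9.03, 8.93, 8.67 and 9.06 at day 2, and 8.67, 8.61, 8.67 and 8.59 at day 5. At day 2 most samples lay above the controls, while KO day 2 replicate 3 lay within the range of the controls, and at day 5 the WT samples lay just above the controls while the KO samples lay within their range. The *Fads2* change was 0.25 ± 0.06 at day 2 (adjusted p = 0.00553, limma) and 0.06 at day 5, and within slide 1 the day 2 difference was -0.01, which rests on 1 day 2 sample, KO day 2 replicate 3.

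The pair of cholesterol exporters moved in opposite directions, both by more than the spread among samples. *Abca1*, which loads cholesterol onto lipid-poor apolipoproteins, rose 3.21-fold at day 2 and 3.89-fold at day 5. *Abca1* read 8.72, 8.65, 8.9 and 8.84 in the 4 WT controls, 10.53, 10.89, 10.44 and 10.3 in WT at day 2, and 10.62, 10.7, 10.74 and 10.9 in WT at day 5 (log2 intensity). In KO, *Abca1* read 9.14, 8.81, 8.87 and 8.54 in the controls, 10.32, 10.27, 10.45 and 10.75 at day 2, and 10.76, 10.69, 10.84 and 10.91 at day 5. The lowest of the 16 lesion samples, at 10.27, lay well above the highest control, at 9.14. The changes were 1.68 ± 0.1 (adjusted p = 8.62e-11, limma) and 1.96 ± 0.1 (adjusted p = 6.36e-12, limma), measured by a single probe at chr4:53043944-53044003 in mm9. From day 2 to day 5 the difference was 0.28 and did not pass (adjusted p = 0.137, limma).

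*Abcg1*, which passes cholesterol to mature lipoproteins, fell. *Abcg1* read 11.1, 11.11, 11 and 10.86 in the 4 WT controls, 10.71, 10.5, 10.38 and 10.26 in WT at day 2, and 10.28, 10.37, 10.17 and 10.16 in WT at day 5 (log2 intensity). In KO, *Abcg1* read 11.2, 11.16, 10.9 and 10.83 in the controls, 10.17, 10.61, 10.69 and 10.16 at day 2, and 10.47, 10.3, 10.22 and 10.2 at day 5. All lesion samples lay below all controls, with KO day 2 replicates 2 and 3 and WT day 2 replicate 1 nearest to them. The fall was 0.59 at day 2 (SE 0.09, adjusted p = 9.3e-05, limma), or 1.5-fold, and 0.75 at day 5 (SE 0.09, adjusted p = 4.07e-06, limma), or 1.68-fold, for the probe at chr17:31252580-31252639 in mm9. *Npc1*, whose product lets cholesterol out of lysosomes, differed by -0.13 at day 2, which did not pass, and fell by 0.34 at day 5 (SE 0.07, adjusted p = 0.000805, limma).

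**Figure D3:**
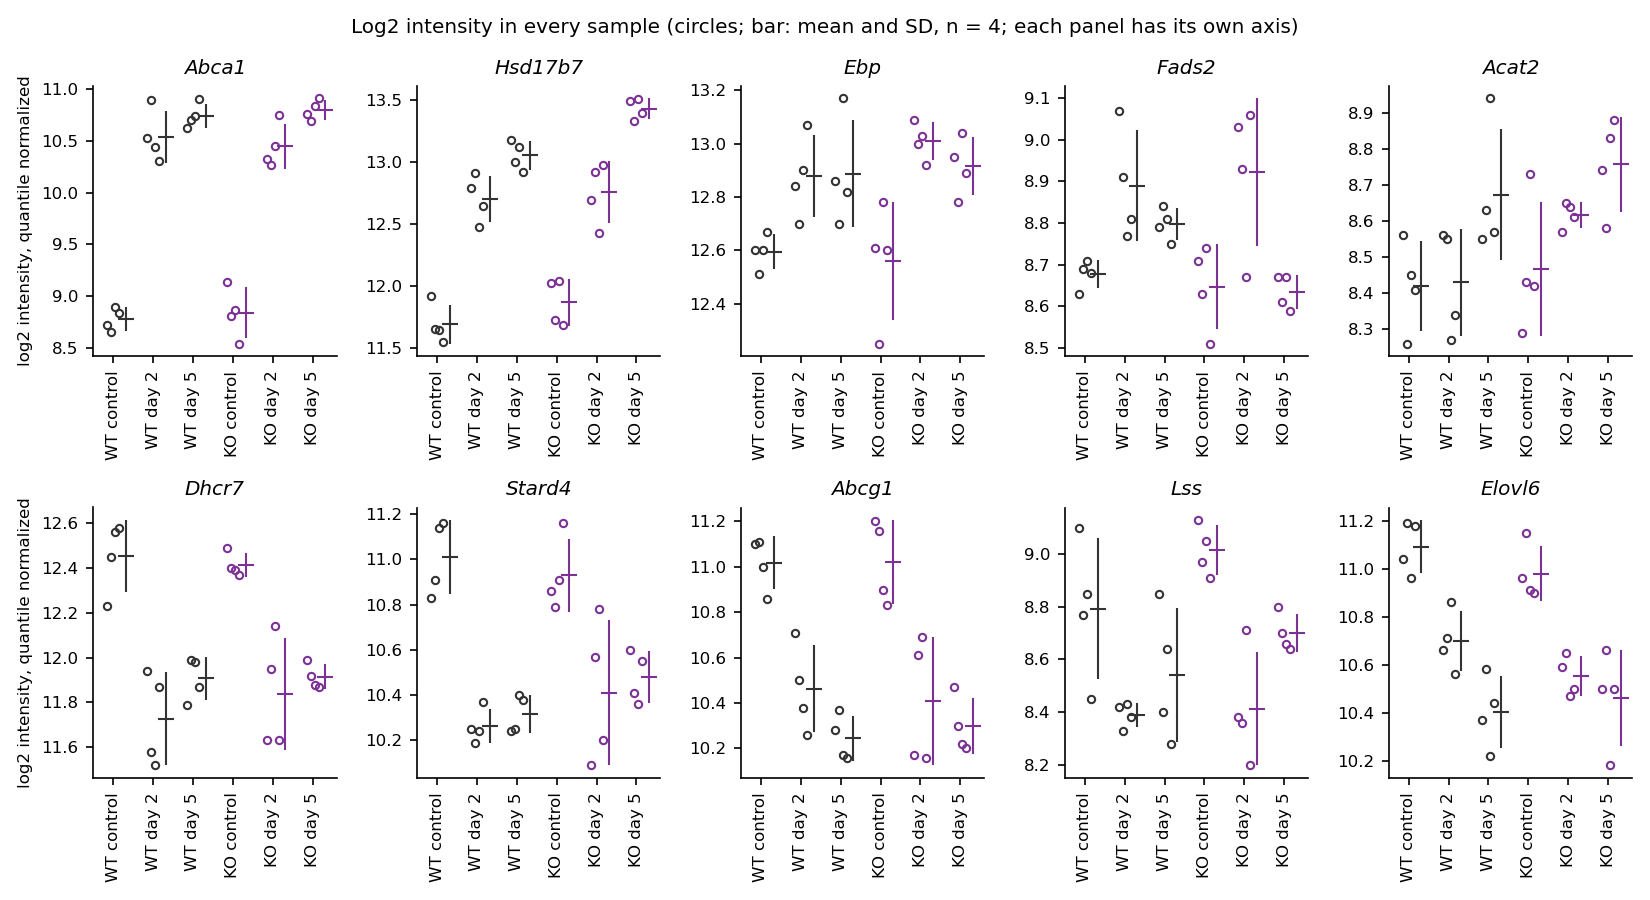
Log2 intensity in every sample for the 10 genes with the largest rises and falls at day 2 or day 5, by group, WT in black and KO in purple. Circles are samples and bars the mean and SD (n = 4) on an axis of its own for each gene, and *Abca1*, *Hsd17b7*, *Dhcr7*, *Stard4*, *Abcg1* and *Elovl6* show no overlap between lesion and control samples.

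Markers of the cells in the ganglia moved at the same time. All 11 macrophage markers measured were above background in every sample, and 6 of them rose at day 2 and 11 at day 5, with median changes of 0.53 and 1.76. The summed level of these markers was 13.12 to 13.87 on the log2 scale in the controls of both genotypes, 12.92 to 14.57 at day 2, and 14.73 to 15.28 at day 5. *Abca1* had reached 85.9% of its day 5 change by day 2, beside a median of 35.1% and at most 65.4% for the macrophage markers, whose part in the *Abca1* change was not tested. Of 13 neuron markers, 8 fell at day 2 and 10 at day 5 while 1, *Tubb3*, rose at day 5, with medians of -0.39 and -0.62 and a summed level of 19.26 to 19.51 in controls, 18.97 to 19.19 at day 2 and 18.83 to 19.2 at day 5. Their part in the falls of the lipid genes was not tested either.

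Of 11 Schwann cell myelin markers, 3 rose at day 2 and 1 at day 5, and none fell, with summed levels of 16.13 to 16.77 in controls, 16.26 to 17.72 at day 2 and 16.2 to 16.79 at day 5. The part of the myelinating cells in the results was not tested. Of 9 satellite glia markers, 3 rose and 3 fell at each day. Among 12 adipocyte markers 2 rose and 1 fell at day 2, and 7 rose and 1 fell at day 5, the summed level being 10.95 to 11.72 in controls, 11.21 to 11.91 at day 2 and 10.99 to 12.47 at day 5. None of *Scd1*, *Fasn* and *Acly*, which fat cells also express, was called as rising, and the part of fat cells in the results was not tested. Of 10 fibroblast and vessel markers, 1 rose at day 2 and 3 at day 5, and none of 7 T cell markers and none of 7 red cell and muscle markers was called at either day by limma (1 and 0 genes had an unadjusted p below 0.05 at day 2, and 1 and 0 at day 5).

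Other genes of lipid metabolism were read from a list beside the members. Of 60 measured, 5 rose and 13 fell at day 2, and 9 rose and 12 fell at day 5, with medians of -0.04 and 0. *Apoe*, a carrier of lipid released by glia and macrophages, fell at day 2 by 0.15 (adjusted p = 0.0318, limma) and had a change of 0 at day 5.

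The largest rises of the list at day 2 were in *Ch25h*, which makes the oxysterol 25-hydroxycholesterol (1.67 ± 0.12, adjusted p = 1.86e-09, limma), in *Fads3*, a desaturase gene next of kin to *Fads1* and *Fads2* (1.26 ± 0.12, adjusted p = 1.18e-07, limma), and in *Ptplb*, a dehydratase of fatty acid elongation (0.35 ± 0.07, adjusted p = 0.00164, limma). *Ch25h* read 6.41 to 6.83 in the controls and 7.33 to 8.9 in the lesion samples, with no overlap, and fell back by 0.61 between day 2 and day 5 (adjusted p = 0.00438, limma). At day 5 the 3 largest rises were *Fads3* (1.15), *Ch25h* (1.06) and *Apod* (0.95), a lipocalin known to rise in injured nerve. Large falls were those of *Thrsp*, a regulator of lipogenesis, at both days (-1.19 and -1.06), of *Lpin1*, a phosphatidate phosphatase, at day 2 (-0.62) and of the transporter *Abca7* at day 5 (-0.59), all past the threshold.

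Within each genotype alone fewer genes passed, as each comparison had 4 samples against 4. In WT 11 of 36 members were called at day 2, where 11.2% of all genes were, and 10 of 36 at day 5, where 13.9% of all genes were. In KO 12 of 36 were called at day 2 and 11 of 36 at day 5, where 11.9% and 12.8% of all genes were. Both genotypes called 9 of the same genes at day 2, which is 81.8% of the WT calls and 75% of the KO calls, and 10 at day 5, which is 100% of the WT calls and 90.9% of the KO calls. The same overlap of calls over all genes is not given here. WT and KO share no samples. The changes of the 17 members called at day 2 and the 20 called at day 5 had the same sign in both genotypes. These members were called on the average of WT and KO, which favours a shared sign, so it does not measure how alike the genotypes were. Without KO control replicate 3, KO day 5 replicate 3 or KO day 5 replicate 4 the KO count at day 5 was 7. The difference between the WT and KO change was largest for *Stard4*, at 0.22 at day 2 and 0.24 at day 5. The *Abca1* change was 1.76 in WT and 1.61 in KO at day 2, and 1.96 in both at day 5.

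Between day 2 and day 5, 2 of 36 members changed, *Hsd17b7* and *Mvd*, both upward, where 3.33% of all genes changed in either direction. *Mvd* read 10.71 to 11.04 in controls, 10.3 to 11 at day 2 and 10.88 to 11.22 at day 5, so that its day 2 samples lay low and its day 5 samples overlapped with the controls.

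The comparison of KO with WT asks which genes depend on *Nfil3*. By limma no member passed for KO minus WT in the controls, and none did at day 2 or day 5, where 0%, 0.0146% and 0.0109% of all genes did. *Nfil3* itself was called at day 2 and day 5 (-5.85 and -6.49, adjusted p = 0.00823 and 0.00259, limma). In the controls it differed by -3.98 but was not called (unadjusted p = 8.6e-05, limma). It was not called in the interaction either (-2.51 at day 5, unadjusted p = 0.0404, limma). A lack of calls in the controls or the interaction therefore does not show independence of *Nfil3*. At an unadjusted p below 0.05 the members, by their brightest probes, counted 0, 0 and 1. Their KO minus WT differences ran from -0.14 to 0.22 in controls, from -0.14 to 0.22 at day 2 and from -0.25 to 0.38 at day 5, with a median 95% interval of ± 0.24 around each. All 95% intervals lay between -0.55 and 0.64. The gene at the upper end was *Hsd17b7*, which read higher in KO at day 5 by 0.38 (95% interval 0.11 to 0.64, unadjusted p = 0.00743, adjusted p = 1, limma), with all 4 KO samples above all 4 WT samples, and its second probe differed by 0.29. In the interaction of time and genotype no member passed by its brightest probe, at an adjusted or an unadjusted p below 0.05, and 0% of all genes passed. Among the other probes, 1 of *Stard4* read higher in KO at day 2 by 0.38 (unadjusted p = 0.00107, adjusted p = 0.846, limma) and had an interaction at day 2 of 0.48 (unadjusted p = 0.00269, adjusted p = 1, limma), where the brightest *Stard4* probe had 0.14 and 0.22 and the third 0.02 and 0.12. Another *Acaca* probe than the brightest differed by 0.28 at day 5 (unadjusted p = 0.048, adjusted p = 1, limma). The plot of KO minus WT gives all 36 intervals.

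**Figure D4:**
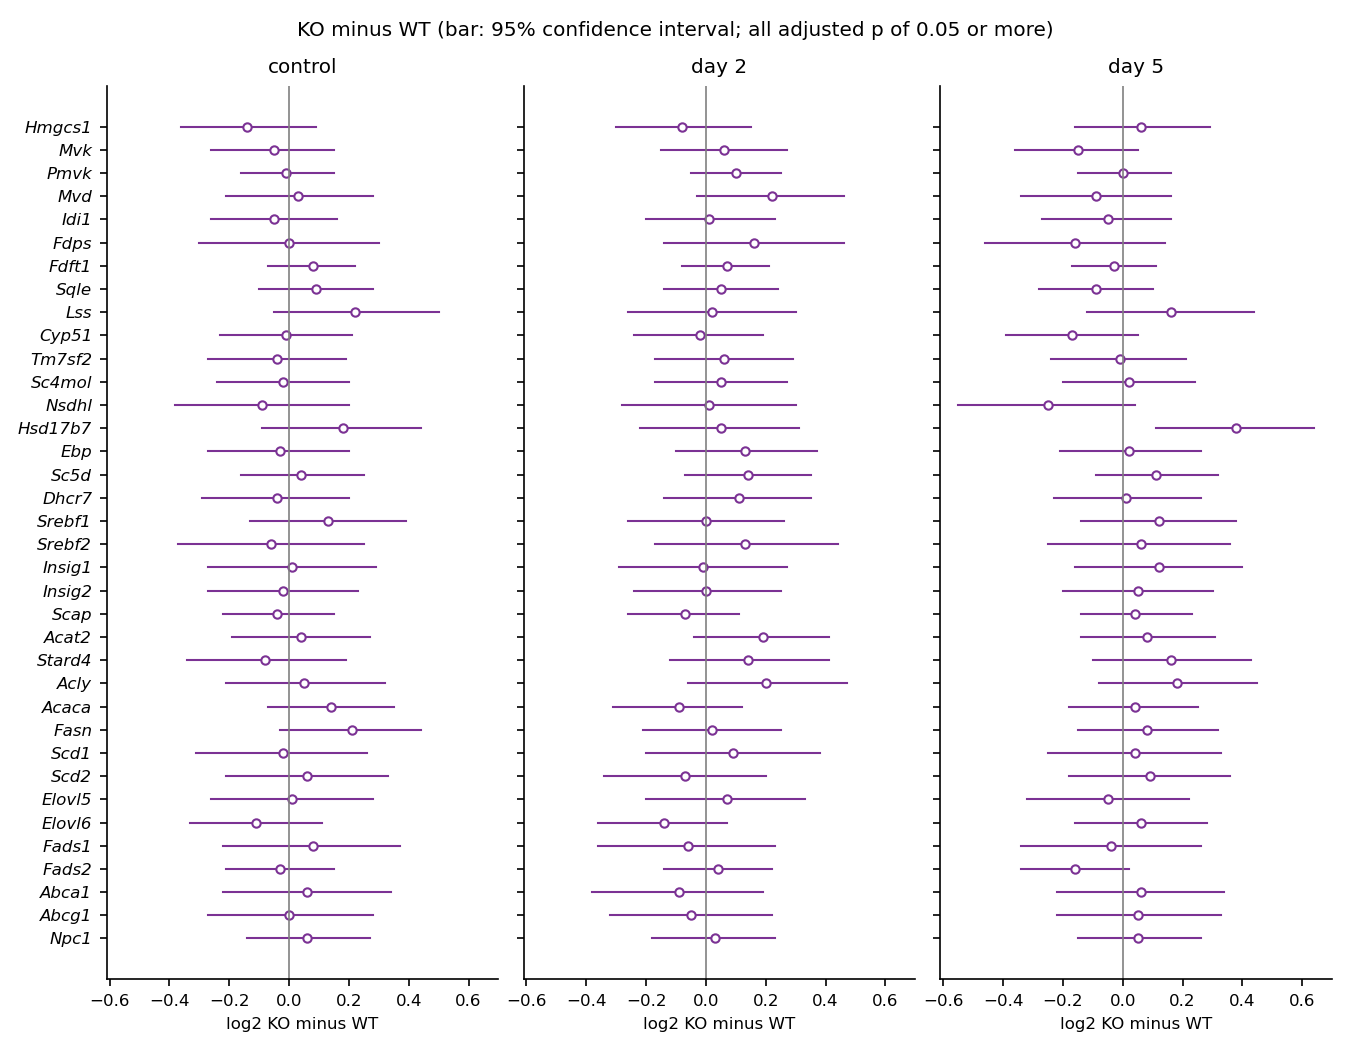
KO minus WT difference on the log2 scale for each of the 36 genes, in panels for controls, day 2 and day 5, with 95% confidence intervals. None has an adjusted p below 0.05, and the point farthest from 0 is *Hsd17b7* at day 5 (0.38).

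The samples of a group were not alike in how far they had moved. Taking the 17 members called at day 2, KO day 2 replicate 3 had a median of 54.3% of the mean change and was the sample nearest to the controls for 8 of them, while the other 7 day 2 samples had medians of 91% to 124%. Its *Atf3* value, 12.94, was also the lowest of the 16 lesion samples. Without this sample 17 members were called at day 2, with *Idi1* gained and *Cyp51* lost. At day 5 the medians of the 8 samples ran from 89.2% to 108% of the mean change over the 20 members called. Without KO control replicate 4, the sample with 2 labels, 17 members were called at day 2 and 19 at day 5.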

How the data were processed

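Amplified RNA of 24 DRG samples was hybridised to 12 Agilent 4x44K arrays on 3 slides, each colour of an array carrying a different sample (2 samples per dye and group). The deposited files hold spot intensities as the authors' scanner software, Agilent Feature Extraction 10.7.3.1, wrote them, not yet normalized. Following the methods of the study, each colour was read as a single sample, the mean foreground was corrected for background by the Edwards method, and values were quantile normalized and taken to log2. Control spots and outlier spots (45018 spots, of which 43379 were no controls) were left out and spots of a probe averaged, which left 41174 probes, 27398 gene names and 417 missing values. No spot was saturated, 54.5% to 72.3% of probes were well above background, and the number of arrays limits the precision.

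A linear model over the 6 groups was fitted with limma 3.58.1 in R 4.3.3 and all samples, with Benjamini-Hochberg adjustment over all probes. Lesion effects averaged both genotypes and are also given in WT and KO. KO minus WT and the interaction of time and genotype were tested in the same fit. Statmod 1.5.0 gave the random block, and the code was tested on simulated data. The methods name 4 independent replicates per condition, without saying which samples share an animal.

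Each gene is given by its probe with the highest mean. All 36 members are named. Values in every sample are given for the 4 largest rises and falls past the threshold at each day. Of the other lipid genes *Apoe*, 3 more chosen for their role, and the 3 largest rises and falls past the threshold at each day were to be named, and some of these are not reported here. The members and all gene lists were chosen with earlier results of these data known. The alternatives tried were other background corrections, foregrounds and scalings, a filter on dim probes, the mean over probes, dye, slide, array and replicate number as terms, and each sample left out in turn. Promoter windows came from RefSeq, GRCm38.p6, matched by symbol or synonym, and probe positions are those of the array files in mm9. Whether a probe lies in an exon or UTR was not analysed here.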

Additional observations from a re-analysis of the deposited data

Results flagged for a closer look

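In 216 sets of 4 samples (36 genes in 6 groups) a single sample stood far from the other 3 in 5 sets, or 2.31%, where chance gives about 5%. *Tm7sf2* read 12.3 in KO day 5 replicate 4, and 12.4 to 12.42 in the other KO day 5 samples. *Sc4mol* read 13.83 in WT control replicate 3, and 14.03 to 14.07 in the other WT controls. *Scd2* read 15.01 in WT day 2 replicate 3 beside 14.72 to 14.73, and 14.46 in WT day 5 replicate 4 beside 14.82 to 14.86. *Fads1* read 9.98 in WT control replicate 1, and 9.48 to 9.54 in the other WT controls.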

How the results depend on the processing

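Of the 17 members called at day 2, 13 were called under all 14 alternative fits and with each of the 24 samples left out, as were 13 of the 20 called at day 5 and 2 of the 2 called between the days. The alternative fits called 16 to 20 members at day 2, 17 to 23 at day 5 and 18 to 24 by the F test, and leaving out a sample gave 15 to 17, 15 to 20 and 18 to 21. Between day 2 and day 5, 5 members were called with no background correction and 4 with normexp and an offset of 50, where the count was 2. In KO at day 5, where the count was 11, leaving out a sample gave 7 to 12. KO minus WT and the interaction called 0 members under all of these. Within single slides, where no test was run, the direction turned for *Fads2* at day 2 in slide 1 (-0.01, with 1 day 2 sample) and for *Scd2* at day 5 in slide 2 (0.10). The cause of these shifts was not tested.

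Correlations between samples with the same replicate number, with the group means taken out, ran from -0.585 to 0.595. They were not set beside those of samples with different numbers, and the dye went with the number. Whether the replicate numbers pair samples of the same animal is therefore unknown. With the replicate number as a block, *Insig2* passed at day 2 (-0.15, adjusted p = 0.0465, limma) and *Idi1* no longer passed at day 5 (-0.21, adjusted p = 0.0605, limma), while 72 of 74 values kept their side of the threshold. With 4 samples a group, the 95% interval of a KO minus WT difference spanned a median of 0.24 to either side on the log2 scale, which limits what that comparison can show.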
